A study of Mus musculus with 12 samples.

Results

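The comparison described here set growing mouse oocytes labelled as a conditional knockout of Polycomb repressive complex 1 (PRC1) beside control oocytes that had not yet begun to grow. It asked which changes of oocyte growth were still present in the knockout. It used 4 of the 12 libraries of the series: 2 libraries of growing oocytes from postnatal day 7 (P7) PRC1 conditional knockout females (PRC1 cKO, replicates 1 and 2) and 2 libraries of non-growing oocytes from P6 PRC2 control females (replicates 1 and 2). The PRC1 cKO libraries stood in 1 deposited table and the non-growing libraries in another. The 2 tables were joined by gene identifier and the 4 columns were rescaled together by a trimmed mean of their log ratios. The unit of both tables is TPM, which corrects counts for transcript length and for the library total. Gene models at 1 TPM or more, as deposited, in at least 2 of the 4 libraries were tested. Of 55382 gene models present in both tables, 15183 met that rule.

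The PRC1 cKO genotype is labelled Ring1-/-; Ring1F/-; Ddx4-Cre, which names Ring1 at both loci, whereas the PRC1 control is labelled Ring1-/-; Rnf2F/+; Ddx4-Cre. The knockout is called PRC1 cKO here, as the labels call it. The non-growing oocytes carried EedF/+; Ddx4-Cre, the genotype that serves as control for PRC2 in the series. Ddx4-Cre recombines floxed alleles in germ cells, and it was present in every group used here. The constitutive Ring1 null allele was present in both PRC1 groups but not in the non-growing oocytes. Genotype, growth state, postnatal day and deposited table therefore all differed together between the groups compared, and their parts in any difference cannot be told apart from these 4 libraries. For orientation, the same genes were also measured in 2 libraries of P7 growing oocytes of the PRC2 control genotype and 2 libraries of P7 growing oocytes of the PRC1 control. The first pair gave a growth comparison within 1 table (PRC2 control growing against non-growing), and the second pair gave the comparison of PRC1 cKO with its control within the other table. The labels do not say whether replicates came from separate animals, so p-values measure only the spread between these libraries, which may be technical.

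Oocytes of the newborn mouse ovary rest in primordial follicles. When a follicle is activated its oocyte enlarges, builds the zona pellucida, secretes factors that act on granulosa cells and stores messenger RNA and protein for the embryo. PRC1 is a chromatin complex whose catalytic subunits RING1 and RNF2 (RING1B) attach ubiquitin to histone H2A, and PRC2, of which EED is a core subunit, methylates histone H3 at lysine 27. Both complexes are best known for holding developmental genes silent, and PRC1 with variant subunits also keeps many germline and meiotic genes silent.

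The genes named in the genotypes were examined first. Ring1 was listed at 1.03 and 0.626 rescaled TPM in the non-growing libraries, at 0 in each PRC1 control library and at 0.0082 and 0.0198 in the PRC1 cKO libraries. Both PRC1 groups thus lay below the non-growing oocytes, and the gene did not pass the filter. Rnf2 was measured at 62.8 and 66.3 in non-growing and 71.99 and 60.7 in PRC1 cKO libraries (log2 fold change 0.03, SE 0.13, limma adjusted p = 0.829), with 96.03 and 77.3 in the PRC1 control. A gene total does not show whether a floxed exon was removed, so these values do not check the conditional deletion. Eed was at 99.8 and 99.3 in non-growing and 73.01 and 91.8 in PRC1 cKO libraries, a difference that did not pass (adjusted p = 0.151 by limma) and whose sign depended on the scaling.

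Germ cell markers were present in every library: Ddx4 (a germ cell RNA helicase) ranged from 197 to 281 rescaled TPM and Dazl (a germ cell RNA-binding protein) from 326 to 540.3 over the 8 libraries. Replicates of a group correlated at 0.975 (PRC1 cKO) to 0.985 (non-growing) on the log2 scale over the tested genes. Gene models of the annotation class TEC, predicted loci that still await experimental evidence, held 2.48% to 2.57% of the deposited TPM in non-growing, 20.9% to 24.1% in control growing and 11.05% to 14.86% in PRC1 cKO libraries. In all, 12535 and 12581 models reached 1 TPM in the non-growing against 15580 and 14938 in the PRC1 cKO libraries. Between the growing controls of the 2 tables, which differ in genotype and table but not in stage, 1660 of the 15183 genes (10.9%) differed by 2-fold or more, with a median log2 difference of -0.05 and a 5th to 95th percentile range of -0.97 to 1.11. TPM values carry no read depth, so the counting error of low values is unknown.

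Across the tested genes 61.7% passed (limma, adjusted p under 0.05), and the libraries of the 2 groups did not overlap for 83.5%. There were 4752 higher (31.3%) and 4610 lower (30.4%) in PRC1 cKO growing than in control non-growing oocytes. Of these, 3355 and 2307 changed by 2-fold or more. Each value is relative to the trimmed-mean scale: the median log2 fold change of all tested genes was 0.02 on it and 0.27 on the deposited TPM scale, where 5416 genes were higher and 3237 lower. Scaling on nuclear protein-coding genes gave 6788 higher and 2476 lower. Because so large a share of genes passed, the counts of each gene list are to be read against these background shares. Of the tested models, 3022 reached 1 TPM in exactly 2 of the 4 libraries, 2461 of them in the PRC1 cKO pair only and 394 in the non-growing pair only. The filter fixes the direction of such a gene, so the number of such members is given with each list that holds any, and their calls support nothing. Lists made mostly of them are described by their levels alone. Such members were counted for the comparison described here, not for control growth or for PRC1 cKO against PRC1 control.

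Secreted oocyte factors and zona pellucida proteins were higher in PRC1 cKO growing than in non-growing oocytes for most of the list, but far below the levels of control growing oocytes. Of 13 tested genes 9 rose, 1 fell and 3 did not pass, with a median log2 fold change of 1.53 beside 0.02 over all genes. Among the 13, 2 (Fgf8 and Bmp6) reached 1 TPM only in the PRC1 cKO pair. Gdf9, a growth factor of the transforming growth factor beta family that oocytes secrete to granulosa cells (chromosome 11, 53431023 to 53437904 in the deposited annotation), was at 669 and 699 rescaled TPM in non-growing and 1289.7 and 2180.4 in PRC1 cKO libraries, against 7267 and 7912 in PRC2 control growing and 7891 and 7509.8 in PRC1 control growing libraries. The PRC1 cKO libraries lay above both non-growing libraries and below all 4 control growing libraries (log2 fold change 1.29, SE 0.27, limma adjusted p = 0.012). The log2 fold change was 3.47 (SE 0.07, adjusted p = 3.93e-05 by limma) in control growth and -2.20 (adjusted p = 0.00532 by limma) in PRC1 cKO against PRC1 control. In the control growth comparison 66.2% of 13216 genes passed, 33.3% higher and 32.9% lower, and the libraries did not overlap for 85.6%. In PRC1 cKO against PRC1 control 44.5% of 14939 passed, 20.7% higher and 23.8% lower, and the libraries did not overlap for 74.8%. These are the background shares for counts from those comparisons.

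Zp3, which encodes a protein of the zona pellucida, was at 2534 and 2542 in non-growing and 3658 and 4542 in PRC1 cKO libraries. It was at 13027 and 12155 in PRC2 control growing and 10359 and 9325 in PRC1 control growing libraries. It was already abundant before growth, and its rise in PRC1 cKO was small (log2 fold change 0.68, SE 0.16, adjusted p = 0.019 by limma) beside 2.31 in control growth. Zp1, which cross-links zona filaments, went from 436 and 446 to 1177 and 1391 rescaled TPM (log2 fold change 1.53, adjusted p = 0.00118 by limma) beside 2.55 in control growth. Zp2 stood at 2174 and 2274 in non-growing and 2491 and 2411 in PRC1 cKO libraries, a difference that did not pass, although control growth raised it to 5529 and 5602. Bmp15, the partner of Gdf9 among secreted factors, was at 15.6 and 15.7 rescaled TPM in non-growing and 18.1 and 73.4 in PRC1 cKO libraries. The replicates of PRC1 cKO differed widely, with replicate 1 near the non-growing level and replicate 2 above it, and the comparison did not pass (log2 fold change 1.18, SE 0.64, adjusted p = 0.171 by limma). The PRC2 control growing libraries held 711 and 905 and the PRC1 control 726 and 509. The calls of Gdf9 and Zp3 were lost when either non-growing library was left out (highest adjusted p 0.084 and 0.223 over the alternatives).

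Astl, the egg protease that cleaves ZP2 after fertilization, rose from 84.8 and 92.5 to 406 and 552 rescaled TPM (log2 fold change 2.41, adjusted p = 0.000974 by limma). Oosp2, an oocyte-secreted protein, rose from 23.02 and 22.9 to 143 and 198 (log2 fold change 2.82). Bmp6, another secreted factor of the same superfamily, went from 1.00 and 0.823 to 6.79 and 7.53 (log2 fold change 2.09). Izumo1r, the egg receptor for the sperm protein IZUMO1, was the 1 gene of the list that fell, from 38.3 and 43.8 to 31.1 and 26.6. All 13 rose in control growth, which shares the non-growing libraries with the comparison described here. In PRC1 cKO against PRC1 control, which shares the PRC1 cKO libraries with it, 12 fell and Cd9, a tetraspanin of the egg membrane, did not pass.

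**Figure D1:**
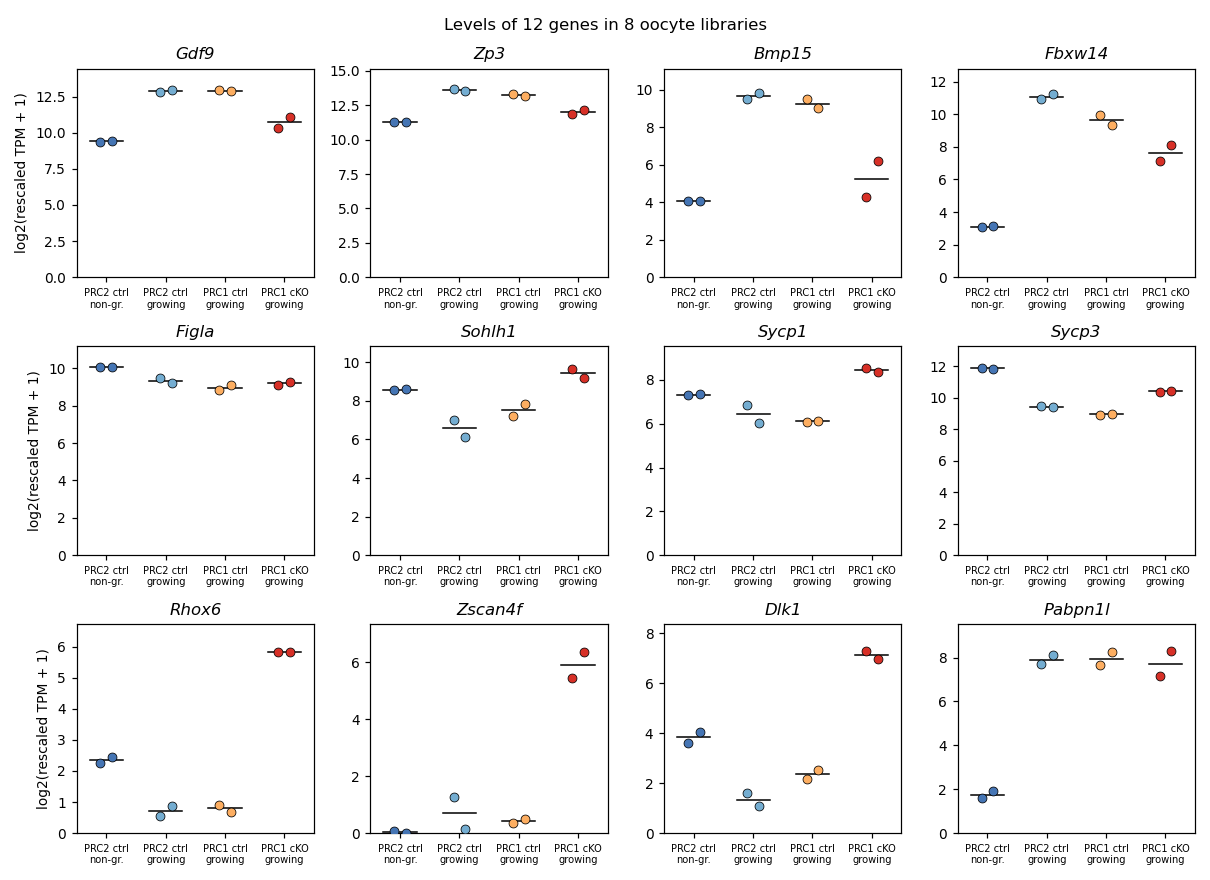
Levels of 12 genes as log2(rescaled TPM + 1) in 8 libraries, with 1 point a library and a line at the mean of the 2 libraries of each group (PRC2 control non-growing, PRC2 control growing, PRC1 control growing, PRC1 cKO growing). Gdf9, Zp3 and Fbxw14 lie in PRC1 cKO between the non-growing and the control growing libraries, Bmp15 is near the non-growing level in 1 PRC1 cKO library and above it in the other, Sycp1, Sohlh1, Rhox6, Zscan4f and Dlk1 are highest in PRC1 cKO, and Pabpn1l is alike in the 3 growing groups.

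The promoters of Zp3 and Bmp15 are shown because FIGLA, the basic helix-loop-helix factor that switches on zona genes in mouse, binds E-boxes of the form CANNTG. These genes were picked by level, as Zp3 was already abundant before growth whereas Bmp15 was low. A link between level and number of matches was not tested. The 250 bases before each gene start were read from RefSeq on GRCm38.p6, each written on the gene's own strand, with every CANNTG in capitals. The Zp3 window (chr5:135979855-135980104, plus strand) holds 3 matches, at 181, 134 and 55 bases before the start, the first of them CACGTG. The Bmp15 window (chrX:6320725-6320974, minus strand) holds 1 at 201. Such a match is common, being present in 66.0% of 27025 RefSeq promoters of that length and in 58.9% of the 10724 promoters of tested genes. It is therefore a description of these letters only.
Zp3: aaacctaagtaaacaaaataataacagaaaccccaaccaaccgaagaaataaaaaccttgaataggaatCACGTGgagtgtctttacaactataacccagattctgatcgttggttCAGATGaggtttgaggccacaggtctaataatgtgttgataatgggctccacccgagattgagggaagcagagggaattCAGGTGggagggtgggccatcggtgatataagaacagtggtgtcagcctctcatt
Bmp15: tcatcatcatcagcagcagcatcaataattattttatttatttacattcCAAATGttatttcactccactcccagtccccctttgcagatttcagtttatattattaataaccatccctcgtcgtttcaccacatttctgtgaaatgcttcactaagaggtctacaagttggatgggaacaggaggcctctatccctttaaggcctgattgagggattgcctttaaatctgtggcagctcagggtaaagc

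Figla itself (chromosome 6, 86016171 to 86020996) was at 1085 and 1089 rescaled TPM in non-growing, 710.0 and 594 in PRC2 control growing, 457 and 549 in PRC1 control growing and 561 and 623 in PRC1 cKO libraries. It fell from the non-growing level (log2 fold change -0.88, SE 0.11, adjusted p = 0.00312 by limma), a call lost without either non-growing library and under quantile normalization. It differed by 0.24 on the log2 scale from the PRC1 control (adjusted p = 0.304 by limma), which did not pass. Of 14 tested transcription factors and partners of the primordial oocyte, 4 rose, 4 fell and 6 did not pass in PRC1 cKO, and the sign of their median depended on the scaling. Nobox, a homeobox factor needed for early folliculogenesis, was at 516 and 544 in non-growing and 604 and 458 in PRC1 cKO libraries and did not pass. Sohlh1, a germ cell basic helix-loop-helix factor upstream of Nobox and Figla, went the other way from control growth: it was at 375 and 394 in non-growing, 128 and 68.9 in PRC2 control growing and 809 and 591 in PRC1 cKO libraries. Its rise in PRC1 cKO (log2 fold change 0.85, adjusted p = 0.013 by limma) was lost without either non-growing library. Lhx6, a LIM homeobox gene, stood at 2.13 and 2.88 in non-growing, 0.549 and 0.0591 in PRC2 control growing and 20.8 and 20.9 in PRC1 cKO libraries (log2 fold change 2.65, adjusted p = 0.000924 by limma).

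Genes of the subcortical maternal complex, a protein assembly of the egg cortex needed for the first cleavages, were divided. Of 8 tested, 4 rose, 2 fell and 2 did not pass. Padi6, a component of egg cytoplasmic lattices, rose from 1524 and 1657 to 5256 and 4382 rescaled TPM (log2 fold change 1.59, SE 0.15, adjusted p = 0.00157 by limma), a range that overlaps the 4772 and 4466 of PRC2 control growing libraries. The PRC1 control held 7627 and 8849, above both PRC1 cKO libraries, a difference that did not pass (log2 fold change -0.78, SE 0.25, adjusted p = 0.054 by limma). Tle6 rose from 346 and 398 to 1031 and 969 and Zbed3 from 353 and 374 to 729 and 803 (log2 fold changes 1.43 and 1.07). Nlrp5, an NLR family protein, and Ooep, an RNA-binding KH-domain protein, fell below their starting level in PRC1 cKO. Ooep stood at 700.4 and 678 in non-growing, 1092 and 984 in PRC2 control growing and 192 and 278 in PRC1 cKO libraries (log2 fold change -1.57, adjusted p = 0.00286 by limma). Nlrp5 went from 3148 and 3029 to 1615 and 1679 (-0.91). All 8 genes rose in control growth, Ooep by 0.59 on the log2 scale, a direction that was reversed on the deposited TPM scale.

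Most members of the oocyte Fbxw and Nlrp clusters rose above the non-growing level. Of 15 F-box genes of the oocyte Fbxw cluster 11 rose and 4 did not pass. Their median log2 fold change was 1.56, and it was 5.28 in control growth, where all 15 rose. Fbxw14 went from 7.47 and 7.76 to 137 and 278 rescaled TPM in PRC1 cKO, against 1958 and 2411 in PRC2 control growing and 999 and 639 in PRC1 control growing libraries (log2 fold change 4.51, SE 0.35, adjusted p = 0.00102 by limma). These genes are close copies of each other, and the rule by which reads were divided among them is not stated in the labels, so single members are uncertain. Of 9 tested oocyte Nlrp genes, which encode NLR proteins of the egg, 6 rose and 3 did not pass. Nlrp9a rose from 2.94 and 2.49 to 40.98 and 74.7. Nlrp9b, the 1 of the 9 that met the filter only through the PRC1 cKO pair, stood at 0.236 and 0.538 in non-growing and 26.9 and 56.1 in PRC1 cKO libraries. Of 7 oocyte homeobox (Obox) genes 4 were tested and 2 passed. Obox5 rose from 1.47 and 1.54 to 5.82 and 30.6 (log2 fold change 2.55, SE 0.73, adjusted p = 0.033 by limma, a call lost under 5 of the alternatives). The other was Obox7, tested only through the PRC1 cKO libraries, at 0.359 and 0.307 in non-growing and 2.35 and 2.22 in PRC1 cKO libraries. Obox1 stood at 1.20 and 1.33 in non-growing and 0.944 and 27.1 in PRC1 cKO libraries against 555 and 409 in PRC2 control growing libraries, and did not pass.

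PRC1 cKO replicate 2 was above replicate 1 in 14 of the 15 Fbxw genes (median log2 difference 1.08), in 7 of 9 Nlrp genes (0.83), in 11 of 13 zona and secreted genes (0.44) and in 3 of 4 Obox genes, whereas over all genes tested it was above in 8531 of 15176 with a median of 0.06. The part of this spread in the results that did not pass was not tested. In bulk libraries fewer cells with a transcript and less of the transcript in each cell cannot be told apart.

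Genes for storing maternal messenger RNA rose in part. Of 19 tested, 2 of them only through the PRC1 cKO libraries, 8 rose, 3 fell and 8 did not pass, with a median log2 fold change of 0.43. In control growth 16 of 18 rose and 1 fell. Eif4e1b, an oocyte cap-binding protein, rose from 3.22 and 3.41 to 68 and 100.2 rescaled TPM (log2 fold change 4.27, SE 0.22, adjusted p = 0.000661 by limma) and was at 407 and 395 in the PRC1 control. Cpeb1, which controls poly(A) tail length, rose from 343 and 367 to 751 and 718, close to the 788 and 924 of PRC2 control growing libraries. Patl2, a translational repressor, rose from 4.77 and 4.70 to 27.3 and 45.6. Btg4, the adaptor through which the CCR4-NOT deadenylase removes maternal messages, fell instead, from 361 and 379 to 123.5 and 163 (log2 fold change -1.38, adjusted p = 0.00239 by limma), whereas control growth raised it to 1185 and 1476.

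Genes for meiotic arrest and maturation were divided. Of 23 tested, 1 of them only through the PRC1 cKO pair, 6 rose, 3 fell and 14 did not pass. In control growth 18 of them rose and 2 fell, and in PRC1 cKO against PRC1 control 16 fell. Npm2, the histone chaperone that decondenses sperm chromatin, rose from 193 and 174 to 914 and 1121 rescaled TPM (log2 fold change 2.46, SE 0.15, adjusted p = 0.000765 by limma), against 2601 and 2764 in PRC2 control growing libraries. Aurkc, a meiotic kinase, rose from 6.31 and 7.60 to 55.6 and 80.6. Wee2, the oocyte kinase that holds CDK1 inactive, was at 65.2 and 66.5 in non-growing and 68.3 and 81.1 in PRC1 cKO libraries and did not pass, although it was at 289 and 326 in PRC2 control growing libraries. Mos, the kinase that arrests the egg at metaphase, was at 55.3 and 55.8 in non-growing and 71.6 and 126 in PRC1 cKO libraries and did not pass either.

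Among 18 tested genes of DNA methylation and imprint protection, 1 of them (Dnmt3l) only through the PRC1 cKO pair, 7 rose and 5 fell. Dnmt1, the maintenance DNA methyltransferase, rose from 14.7 and 16.3 to 102 and 77.9 rescaled TPM (log2 fold change 2.45, SE 0.17, adjusted p = 0.000924 by limma). Dnmt3l, the cofactor of de novo methylation in oocytes, was at 0.101 and 0.0878 in non-growing and 4.84 and 13.4 in PRC1 cKO libraries, a direction that the filter fixed. Both stayed below the PRC1 control, at 418 and 509.7 for Dnmt1 and 46.8 and 34.9 for Dnmt3l. Dnmt3a, the catalytic partner of Dnmt3l, stood at 27.1 and 28.5 in non-growing and 31.05 and 35.1 in PRC1 cKO libraries and did not pass, against 103 and 113 in PRC2 control growing libraries. In the pathway from KIT through PI3K to FOXO3 that activates primordial follicles, 4 of 22 tested genes rose and 7 fell, with a sign of the median that depended on the scaling. Tsc2, an inhibitor of mTORC1, rose from 158 and 146 to 673 and 1255 (log2 fold change 2.59, SE 0.31, adjusted p = 0.00247 by limma) and reached 4195 and 4214 in PRC2 control growing libraries. Kit, the receptor at the top of the pathway, was at 113 and 122 in non-growing and 197 and 121 in PRC1 cKO libraries and did not pass.

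Some genes changed from the non-growing level in PRC1 cKO to about the level of the PRC1 control. They were chosen as genes that passed in the same direction in PRC1 cKO growing and in PRC2 control growing against non-growing oocytes and that differed by less than 0.25 on the log2 scale from the PRC1 control. Their values therefore describe the choice. Pabpn1l, an embryonic poly(A)-binding protein, was at 1.99 and 2.81 rescaled TPM in non-growing, 207 and 276 in PRC2 control growing, 199 and 306 in PRC1 control growing and 139.7 and 316 in PRC1 cKO libraries. The 3 growing groups overlapped. Wfdc1, Sdcbp2, Stxbp6, Tmprss11a and Ighm were chosen in the same way, Wfdc1 and Stxbp6 having met the filter only through the PRC1 cKO pair. Stxbp6, which binds SNARE proteins, was at 0.382 and 0.692 in non-growing and 34.6 and 49.98 in PRC1 cKO libraries. The falling genes chosen in this way, near the PRC1 control but not always near the PRC2 control growing level, were Ghrh, Acly, Sox6, Enkur, Rab37 and Etaa1os. Sox6, an SRY-box transcription factor, was at 48.2 and 52.6 in non-growing, 5.22 and 4.74 in PRC2 control growing, 4.54 and 5.94 in PRC1 control growing and 5.42 and 5.13 in PRC1 cKO libraries. Acly, which makes cytosolic acetyl-CoA from citrate, went from 99.8 and 98.9 to 21.9 and 12.96 (log2 fold change -2.49) beside -3.26 in control growth.

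Dppa2, a gene of pluripotent cells and germ cells, also rose in both growing groups, from 3.64 and 4.04 to 55.02 and 92.2 rescaled TPM in PRC1 cKO, with 83.00 and 92.04 in PRC2 control growing libraries. Cdkn1a, the cell-cycle inhibitor p21, fell in both, from 88.99 and 84.97 to 21.8 and 23.6 in PRC1 cKO (log2 fold change -1.89, SE 0.11, adjusted p = 0.000775 by limma), with 18.6 and 9.86 in PRC2 control growing libraries. Bax, a pro-apoptotic protein of the mitochondrial outer membrane, fell from 272 and 281 to 87.4 and 73.8, with 98.2 and 89.2 in PRC2 control growing libraries.

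**Figure D2:**
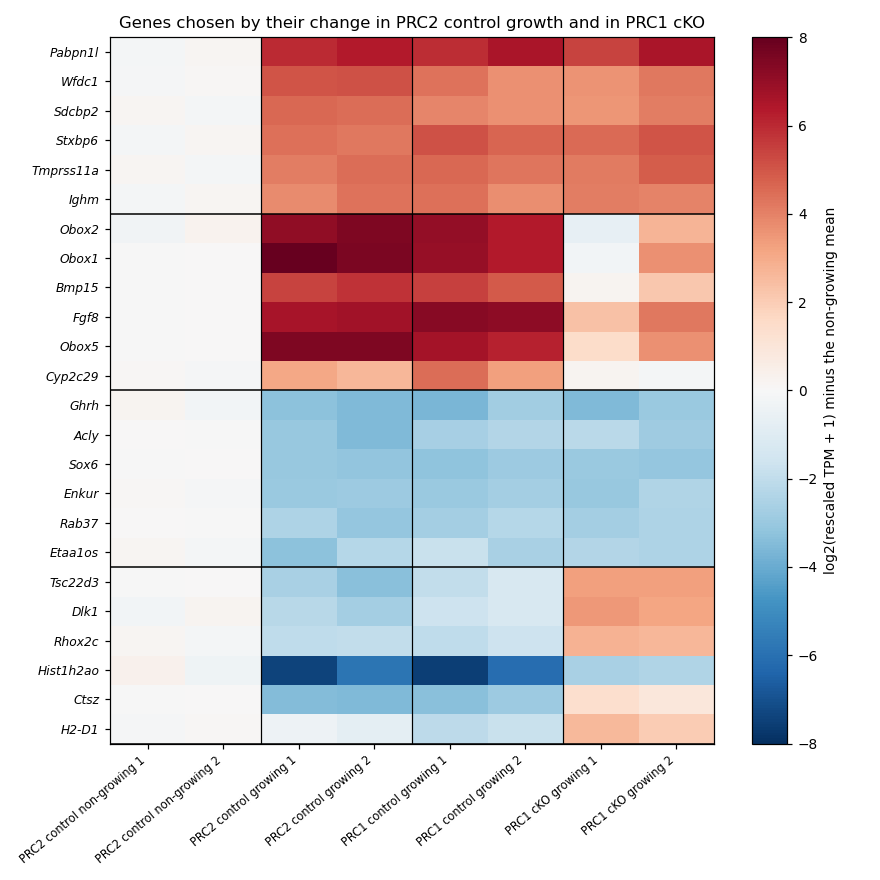
Difference of each library from the mean of the 2 non-growing libraries, on the log2(rescaled TPM + 1) scale, for 24 genes chosen by their change in PRC2 control growth and in PRC1 cKO against PRC1 control, with black lines between the 4 sets of 6 genes and between the groups of libraries. The first set (Pabpn1l to Ighm) and the third (Ghrh to Etaa1os) have similar shades in the 3 growing groups, the second (Obox2 to Cyp2c29) is darker red in the 4 control growing libraries than in PRC1 cKO, and in the fourth (Tsc22d3 to H2-D1) all genes but Hist1h2ao lie above the non-growing level in PRC1 cKO and below it in the control growing libraries.

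Genes of the cytosolic ribosome and of respiration mostly fell in growing oocytes of either kind. Of 83 tested cytosolic ribosomal protein genes, 70 fell and 1 rose in PRC1 cKO against non-growing oocytes, with a median log2 fold change of -0.91, and 65 fell and 2 rose in PRC2 control growth, with a median of -0.85. Rps27 went from 3361 and 3128 to 1028 and 1119 rescaled TPM (log2 fold change -1.59, SE 0.13, adjusted p = 0.00109 by limma), with 807 and 620.0 in PRC2 control growing libraries, and Rpl36a from 680.3 and 679 to 255 and 253. Rps18 was the 1 that rose, from 187 and 153 to 633 and 596, and it was already at 474 and 453 in the PRC1 control. In PRC1 cKO against PRC1 control 16 of the 83 rose and 67 did not pass.

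Of 83 tested nuclear genes of oxidative phosphorylation, 69 fell and 2 rose, with a median log2 fold change of -0.86, beside 54 and 5 with a median of -0.44 in control growth. Of 77 mitochondrial ribosomal protein genes 51 fell and 1 rose (median -0.71), beside 39 and 10 in control growth (median -0.28). Proteasome subunits differed: of 37, 25 fell and 3 rose in PRC1 cKO (median -0.63), whereas 11 fell, 9 rose and 17 did not pass in control growth (median -0.055). Messenger RNAs of the mitochondrial genome fell for 11 of 13, with a median of -1.51, and for 10 of 13 in control growth, with a median of -0.50. Among them mt-Cytb, of complex III, went from 5948 and 5689 to 1109.5 and 1283 rescaled TPM. It was as low in the PRC1 control (999.5 and 633) but not in the PRC2 control growing libraries (4244 and 4075). The median of the 13 was -1.42 on the log2 scale in PRC1 control minus PRC2 control growing oocytes. That offset was -0.55 for oxidative phosphorylation, -0.42 for mitochondrial ribosomal, -0.37 for cytosolic ribosomal and -0.33 for proteasome genes, beside -0.05 over all genes. PRC1 control growing minus non-growing oocytes gave medians of -0.94, -0.66, -1.12 and -0.38 for these lists, in that order. For the mRNAs of the mitochondrial genome that median was -2.16, a deeper fall than in PRC1 cKO. In PRC1 cKO against PRC1 control mt-Atp6, mt-Atp8, mt-Nd1, mt-Nd2 and mt-Nd5 passed as higher. No mRNA of the mitochondrial genome passed as lower there. The part of the 2 tables in the list differences was not tested. The signs of the 5 list medians in PRC1 cKO against non-growing oocytes were the same under each scaling tried.

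Meiotic prophase genes rose and fell, as did all genes tested (31.3% higher and 30.4% lower). Of 16 tested genes of the synaptonemal complex, chromosome axis and meiotic cohesin, 5 rose, 7 fell and 4 did not pass. In control growth 3 rose and 8 fell, and in PRC1 cKO against PRC1 control 9 rose and 2 fell. Sycp1, the transverse filament protein of the synaptonemal complex (chromosome 3, 102818499 to 102936100), was at 159 and 161 rescaled TPM in non-growing, 115 and 64.01 in PRC2 control growing, 66.9 and 68.95 in PRC1 control growing and 369 and 329.5 in PRC1 cKO libraries. The PRC1 cKO libraries lay above those of the other 3 groups, and the rise over the non-growing oocytes passed (log2 fold change 1.12, SE 0.11, adjusted p = 0.00158 by limma). The fall of Sycp1 in control growth also passed (-0.89, adjusted p = 0.045 by limma) and was lost under 6 of the alternatives.

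Sycp3, an axis protein, was at 3810.0 and 3692 in non-growing, 709 and 677 in PRC2 control growing, 483 and 503 in PRC1 control growing and 1338 and 1352 in PRC1 cKO libraries. It fell in PRC1 cKO as well (log2 fold change -1.48, SE 0.12, adjusted p = 0.00112 by limma), to a level above both growing controls. Syce1, of the central element, fell in the same way from 523 and 513 to 231 and 295, with 75.9 and 67.2 in PRC2 control growing libraries, and Smc1b, a meiotic cohesin, from 429 and 407 to 211 and 236, a call lost without non-growing replicate 1. Syce3, another central element gene, rose from 8.24 and 5.94 to 25.1 and 25.3.

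Of 29 tested genes of meiotic recombination, 1 of them only through the PRC1 cKO pair, 7 rose, 9 fell and 13 did not pass in PRC1 cKO, and 6 rose and 13 fell in control growth. Over all genes tested 31.3% were higher and 30.4% lower in PRC1 cKO. The sign of the median of the recombination list in PRC1 cKO depended on the scaling. Spata22, which acts with MEIOB on single-stranded DNA, was at 7.90 and 10.6 in non-growing, 1.16 and 1.89 in PRC2 control growing and 29.3 and 32.7 in PRC1 cKO libraries (log2 fold change 1.66, SE 0.18, adjusted p = 0.00213 by limma). Tex11, which acts in crossover formation, was at 71.4 and 72.1 in non-growing and 74.7 and 72.9 in PRC1 cKO libraries (log2 fold change 0.04, SE 0.10) and did not pass, against 17.4 and 15.6 in PRC2 control growing libraries. Ccnb1ip1 (HEI10), another crossover factor, was at 46.1 and 50.4 in non-growing and 47.3 and 50.5 in PRC1 cKO libraries (log2 fold change 0.02, SE 0.12), against 12.1 and 10.2 in PRC2 control growing libraries. Tex15, a germ cell gene of double-strand break repair and piRNA-directed silencing in mouse, fell from 342 and 315 to 118 and 127, short of the 82.5 and 43.7 of PRC2 control growing libraries.

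Some germline genes stood higher in PRC1 cKO than in each control group. Taf7l, a germ cell form of the general transcription factor subunit TAF7, was at 6.69 and 6.02 rescaled TPM in non-growing, 0.0588 and 0.0984 in PRC2 control growing, 0.763 and 0.791 in PRC1 control growing and 33.2 and 28.2 in PRC1 cKO libraries. It fell in control growth and rose in PRC1 cKO (log2 fold change 2.10, SE 0.16, adjusted p = 0.00102 by limma). Tex101, a germ cell surface protein, was at 0.112 and 0.0659 in non-growing and 28.99 and 15.4 in PRC1 cKO libraries. Utf1, a chromatin factor of pluripotent cells, was at 0.146 and 0.121 in non-growing and 17.6 and 13.01 in PRC1 cKO libraries, and both met the filter only through PRC1 cKO. Of 24 genes of early germ cells and meiotic entry 19 were tested, 3 of them only through the PRC1 cKO pair, and 10 rose and 4 fell. Dppa3 (stella), abundant in oocytes, was among those that fell, from 23890.0 and 22203 to 6169 and 9419, a call lost without either non-growing library. It was at 25801 and 25478 in PRC2 control growing and 11424 and 9648 in PRC1 control growing libraries. PRC1 cKO did not differ from PRC1 control by the test (log2 fold change -0.46, adjusted p = 0.29 by limma). The levels of Dppa3 separated the libraries of the 2 tables.

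The promoters of Sycp1 and Taf7l are shown because variant PRC1 with PCGF6, MGA and MAX binds the E-box CACGTG in mouse. In the 250 bases before the gene start (RefSeq, GRCm38.p6, own strand, CACGTG in capitals), the Sycp1 window (chr3:102936101-102936350, minus strand) and the Taf7l window (chrX:134476491-134476740, minus strand) hold 1 match each, at 94 and 49 bases before the start. The hexamer, a palindrome that is also 1 form of CANNTG, is in 6.05% of 27025 promoters and in 8.51% of the 10724 promoters of tested genes. It is in 7.77% of promoters of genes higher in PRC1 cKO than in non-growing oocytes, 8.80% of those lower and 8.85% of those not passing. By list it is in 7 of the 17 promoters of the synaptonemal, axis and cohesin list and 1 of 20 of meiotic recombination. It is also in 6 of 18 of the piRNA pathway and 8 of 24 of PRC1 subunits. It was not found in the windows of Tex101, Utf1, Zscan4f and Slc28a1, which says only that these letters are not there.
Sycp1: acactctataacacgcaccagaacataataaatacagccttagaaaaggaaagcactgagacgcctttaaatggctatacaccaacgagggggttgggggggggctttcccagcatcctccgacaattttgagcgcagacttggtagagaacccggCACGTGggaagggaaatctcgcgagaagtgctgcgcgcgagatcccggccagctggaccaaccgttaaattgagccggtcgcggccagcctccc
Taf7l: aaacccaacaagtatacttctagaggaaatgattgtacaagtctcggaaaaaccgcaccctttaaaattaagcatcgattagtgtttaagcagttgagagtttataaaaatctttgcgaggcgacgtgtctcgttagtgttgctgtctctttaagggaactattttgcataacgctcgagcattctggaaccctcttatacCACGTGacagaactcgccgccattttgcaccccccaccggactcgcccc

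Genes silent or nearly silent in non-growing oocytes made up several families that were high in PRC1 cKO, and for these the levels are given without counts of calls. Of 24 cleavage-stage genes 12 were tested, each through the PRC1 cKO libraries only. Zscan4f, a gene of the 2-cell embryo, was listed at 0.0562 and 0 rescaled TPM in non-growing, 1.43 and 0.118 in PRC2 control growing, 0.276 and 0.402 in PRC1 control growing and 42.3 and 79.9 in PRC1 cKO libraries. Usp17le, a deubiquitinase of a tandem family, was at 0.348 and 0.34 in non-growing, at or below 0.848 in the control growing libraries and at 76.1 and 80.2 in PRC1 cKO libraries. Duxf3 (Dux), a homeobox gene that activates 2-cell genes, was listed at 0 in both non-growing libraries and at 12.3 and 6.45 in PRC1 cKO. Tcstv1, another gene of the 2-cell embryo, differed in that the growing controls held more of it: it was at 0.348 and 0.516 in non-growing, 108 and 122 in PRC2 control growing, 70.1 and 52.9 in PRC1 control growing and 7.52 and 19.5 in PRC1 cKO libraries. Members of these tandem families share sequence, so single members are uncertain.

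The X-linked Rhox cluster holds reproductive homeobox genes that arose by duplication, so that single members are uncertain here too. Of 32 genes 27 were tested, 11 of them only through the PRC1 cKO libraries. Among those already present in non-growing oocytes, Rhox6 was at 3.83 and 4.49 rescaled TPM in non-growing, 0.471 and 0.827 in PRC2 control growing, 0.892 and 0.618 in PRC1 control growing and 56.3 and 55.98 in PRC1 cKO libraries (log2 fold change 3.47, SE 0.14, adjusted p = 0.000567 by limma). Rhox5 went from 7.96 and 6.94 to 63.7 and 68.7, with 1.71 and 1.02 in PRC2 control growing libraries. Rhox1 stood at 179 and 185 in non-growing and 143 and 164 in PRC1 cKO libraries, where the difference did not pass. Rhox10 rose in control growth too, to 28.98 and 33.5, from 7.37 and 3.98, against 19.4 and 26.8 in PRC1 cKO. Rhox3e was listed at 0 in both non-growing and both PRC2 control growing libraries and at 17.3 and 17.3 in PRC1 cKO.

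Hox genes, classical Polycomb targets, reached low levels. Of 39 genes 9 passed the filter, 8 of them only through the PRC1 cKO pair, and those 8 stood between 1.11 and 4.55 rescaled TPM in PRC1 cKO. Hoxb13 was at 0.0225 and 0.121 in non-growing and 4.55 and 2.27 in PRC1 cKO libraries. Hoxa7 differed from the rest, at 0.618 and 1.54 in non-growing, 10.8 and 14.96 in PRC2 control growing, 9.57 and 10.7 in PRC1 control growing and 7.05 and 11.2 in PRC1 cKO libraries, so that the growing controls overlapped PRC1 cKO. Of 78 other developmental regulators 19 passed the filter, 13 of them only through the PRC1 cKO pair. Otx1, a homeobox gene of the forebrain, was at 0.0337 and 0 in non-growing, 5.78 and 5.95 in PRC1 control growing and 9.04 and 6.13 in PRC1 cKO libraries. Meis2, a TALE homeobox gene, rose from 5.76 and 5.31 to 40.1 and 96.3 (log2 fold change 3.28, adjusted p = 0.00302 by limma), against 572 and 672 in PRC2 control growing libraries.

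The largest rises over non-growing oocytes by log2 fold change, among genes at 5 rescaled TPM or more in the higher group, were Slc28a1, Pabpn1l, Usp17le, Zscan4f, Cacna1s, Rhox3a2, Pdgfrl and Igfbp2. All of these but Pabpn1l met the filter only through the PRC1 cKO pair. Slc28a1, a nucleoside transporter, was at 0.191 and 0.461 in non-growing, 1.49 and 1.89 in PRC2 control growing, 33.4 and 33.8 in PRC1 control growing and 79.2 and 120.3 in PRC1 cKO libraries, so the PRC1 control already stood above the PRC2 control. Pdgfrl was as high in the control growing libraries, at 100.1 and 60.1 in the PRC1 control and 55.4 and 75.3 in PRC1 cKO. Igfbp2, which binds insulin-like growth factors, was at 0.438 and 0.703 in non-growing, at or below 0.961 in the control growing libraries and at 65.4 and 63.1 in PRC1 cKO libraries. Cacna1s, a subunit of the muscle calcium channel, was at or below 1.45 in every control library and at 58.5 and 48.7 in PRC1 cKO.

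Among the 8 largest falls were Eno1b, Parp4, Kcnj13, Chd2, Sult2b1, Oog3 and Defb48, and some of them were also near 0 in the PRC1 control. Sult2b1 and Defb48 met the filter only through the non-growing pair. Eno1b, a close copy of the enolase gene Eno1, was at 111 and 128 rescaled TPM in non-growing, 51.04 and 84.4 in PRC2 control growing, 0.844 and 0.676 in PRC1 control growing and 0.985 and 0.86 in PRC1 cKO libraries. Its levels separated the libraries of the 2 tables. Parp4 went from 103 and 100.4 in non-growing to 12.7 and 15.1 in PRC2 control growing, 4.10 and 2.82 in PRC1 control growing and 2.98 and 3.14 in PRC1 cKO libraries. Oog3, an oocyte gene of the PRAME-like family, was at 87.2 and 82.3 in non-growing, 565 and 922 in PRC2 control growing, 21.4 and 13.8 in PRC1 control growing and 0.656 and 9.52 in PRC1 cKO libraries.

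Among genes of metabolism and stress, Ldha, Asns and Psat1 rose in PRC1 cKO and fell in control growth. Ldha, the lactate dehydrogenase subunit of somatic cells, was at 2.98 and 2.85 rescaled TPM in non-growing, 1.04 and 0.413 in PRC2 control growing, 1.70 and 2.46 in PRC1 control growing and 105 and 75.3 in PRC1 cKO libraries (log2 fold change 4.52, SE 0.20, adjusted p = 0.000597 by limma). Ldhb, the subunit of oocytes, was at 5841 and 5710.3 in non-growing and 4398 and 6412 in PRC1 cKO libraries and did not pass, against 27524 and 30162 in PRC2 control growing libraries. Of 15 tested genes of the integrated stress response and serine synthesis, 2 of them tested only through the PRC1 cKO libraries, 10 rose and 4 fell, with a median log2 fold change of 0.96. Asns, which makes asparagine, rose from 19.5 and 19.2 to 81.2 and 87.8 and was at 10.7 and 13.98 in PRC2 control growing libraries. Psat1, of serine synthesis, rose from 26.6 and 21.7 to 75.6 and 60.7 and was at 3.10 and 2.62 in PRC2 control growing libraries. Ddit3 and Atf4, transcription factors of the response, fell, Ddit3 from 41.6 and 44.5 to 6.49 and 15.05. Pmaip1 (Noxa), a pro-apoptotic BH3 protein, rose from 9.21 and 6.76 to 80.2 and 97.5 and was at 4.07 and 5.98 in the PRC1 control. Of 18 tested genes of apoptosis and the DNA damage checkpoint, 1 of them only through the PRC1 cKO pair, 5 rose and 8 fell, a list whose median changed sign with the scaling.

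Imprinted genes rose and fell, as did all genes tested (31.3% higher and 30.4% lower). Dlk1, a paternally expressed gene of the Notch ligand family, was at 11.2 and 15.6 rescaled TPM in non-growing, 2.00 and 1.12 in PRC2 control growing, 3.44 and 4.83 in PRC1 control growing and 154 and 124 in PRC1 cKO libraries (log2 fold change 3.29, SE 0.21, adjusted p = 0.000827 by limma). Mest, another paternally expressed gene, rose from 1.77 and 1.46 to 20.8 and 36.2 in PRC1 cKO and was at 159 and 189.7 in PRC2 control growing libraries. Snrpn, a paternally expressed splicing gene, fell from 169 and 176 to 43.5 and 43.3. Of 23 tested canonically imprinted genes, 4 of them only through the PRC1 cKO libraries, 11 rose and 5 fell. Of 13 tested noncanonically imprinted genes, whose imprint rests on histone H3 lysine 27 methylation inherited from the oocyte, 4 rose and 4 fell, near the shares over all genes. Of the 13, 3 met the filter only through PRC1 cKO. Bbx, an HMG-box gene, fell from 296 and 296 to 87.8 and 80.5, with 89.02 and 64.7 in PRC2 control growing libraries.

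Enzymes that write, erase or read histone H3 methylation were lower or did not pass. Of 27 tested, 1 of them only through the non-growing pair, 14 fell and 13 did not pass, with a median of -0.48 whose sign depended on the scaling. Nsd1, a methyltransferase of histone H3 lysine 36, fell from 26.2 and 25.9 to 8.43 and 8.25 rescaled TPM, with 15.8 and 15.3 in PRC2 control growing libraries (log2 fold change -1.53, SE 0.13, adjusted p = 0.00127 by limma). Suv39h1, a methyltransferase of lysine 9, fell from 16.02 and 18.3 to 6.86 and 5.58, above the 3.37 and 3.25 of PRC2 control growing libraries. Kdm5b, a demethylase of lysine 4, was at 33.1 and 33.8 in non-growing, 6.39 and 3.52 in PRC2 control growing and 23.6 and 22.1 in PRC1 cKO libraries, so that the PRC1 cKO libraries lay nearer the non-growing ones.

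In the piRNA pathway, which silences transposons in germ cells, 5 of 22 tested genes rose and 8 fell, 1 of the 22 was tested only through the PRC1 cKO pair, and the sign of the median depended on the scaling. Gtsf1, a cofactor of PIWI proteins, was at 4287 and 4173 rescaled TPM in non-growing, 2657 and 2649 in PRC2 control growing, 1450.3 and 1142 in PRC1 control growing and 382 and 650.4 in PRC1 cKO libraries (log2 fold change -3.08, SE 0.27, adjusted p = 0.00129 by limma). The PRC1 cKO libraries were the lowest of the 8. Mov10l1, a helicase that processes piRNA precursors, rose from 93.2 and 96.5 to 205 and 148, against 27.8 and 19.06 in PRC2 control growing libraries. Of 10 tested genes of the X-linked Xlr family 2 rose and 4 fell; Xlr itself went from 25.4 and 24.1 to 97.4 and 104, against 8.75 and 9.15 in PRC2 control growing libraries, and Xlr3a from 318 and 320.4 to 140.3 and 173.

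Glycolytic genes were mostly higher. Of 18 tested genes of glycolysis and lactate transport, 1 of them only through the PRC1 cKO libraries, 10 rose and 2 fell. The list median was also 0.49 on the log2 scale in PRC1 control minus PRC2 control growing oocytes. In PRC1 control growing minus non-growing oocytes it was 0.21. The part of the 2 tables in these rises was not tested. Tpi1, which interconverts the triose phosphates, rose from 29.5 and 30.3 to 63.03 and 64.6 rescaled TPM, with 28.4 and 26.4 in PRC2 control growing and 52.5 and 52.2 in PRC1 control growing libraries. Pfkl, a subunit of phosphofructokinase, rose from 5.82 and 5.16 to 20.5 and 14.4, with 5.34 and 7.16 in the PRC1 control. Hk1, a hexokinase, fell from 7.0 and 8.30 to 3.43 and 3.19, short of the 0.255 and 0.0197 of PRC2 control growing libraries.

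Subunit genes of the Polycomb complexes themselves passed no more often than the 61.7% of all genes tested. Of 28 tested PRC1 subunit genes 8 rose, 5 fell and 15 did not pass. Of 12 PRC2 subunit genes 2 rose, 5 fell and 5 did not pass. The sign of both list medians changed with the scaling. Of the tested subunit genes, 2 PRC1 genes and 1 PRC2 gene were tested only through the PRC1 cKO pair. Bcor, of the variant complex with PCGF1, rose from 2.34 and 2.05 to 9.66 and 12.5 rescaled TPM, against 2.68 and 2.70 in the PRC1 control. Pcgf1 was at 67.2 and 68.3 in non-growing and 87.9 and 184 in PRC1 cKO libraries and did not pass, although it was at 1055 and 1202 in PRC2 control growing libraries. Ezh2, a catalytic subunit of PRC2, was at 87.9 and 78.5 in non-growing and 30.5 and 71.98 in PRC1 cKO libraries and did not pass, against 292 and 307 in PRC2 control growing libraries.

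The growth comparison within the PRC2 table and the PRC1 comparison within the PRC1 table share no library, so their calls can be set against each other over 12591 genes tested in both. Of 4310 genes higher in control growth, 2433 (56.5%) were lower in PRC1 cKO than in PRC1 control, 142 (3.29%) were higher and 1735 (40.3%) did not pass, beside 27.1% lower and 14.4% higher over all 12591. Of 4050 genes lower in control growth, 1250 (30.9%) were higher in PRC1 cKO and 282 (6.96%) were lower. Among the 680 genes that control growth raised 8-fold or more, 512 (75.3%) were lower in PRC1 cKO, and among the 64 that it lowered 8-fold or more, 37 (57.8%) were higher. Taken from the other side, 71.4% of the 3408 genes lower in PRC1 cKO were higher in control growth, and 69.0% of the 1812 higher in PRC1 cKO were lower in control growth. Across genes the 2 log2 fold changes correlated at -0.60 (Pearson) and -0.63 (Spearman). This describes genes that share libraries within each comparison and are not independent. The shares above include genes that met the filter of either comparison through 1 group only, whose direction the filter fixed. Their number was not counted. A gene near 0 in the PRC1 control can also hardly be lower in PRC1 cKO, and such genes were not set apart. With no filter, 32.0% of growth-raised genes were lower in PRC1 cKO, beside 8.40% over all genes.

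These shares moved when a library of the PRC1 table was left out and with the scaling, and the shares over all genes moved with them. Without PRC1 control replicate 1 the share of growth-raised genes that were lower in PRC1 cKO was 16.1%, beside 6.28% over all genes. Without PRC1 control replicate 2 it was 30.4% beside 12.1%, and without PRC1 cKO replicate 1 it was 30.3% beside 13.4%. On the deposited scale it was 29.0%, beside 7.16% over all genes in both comparisons.

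**Figure D3:**
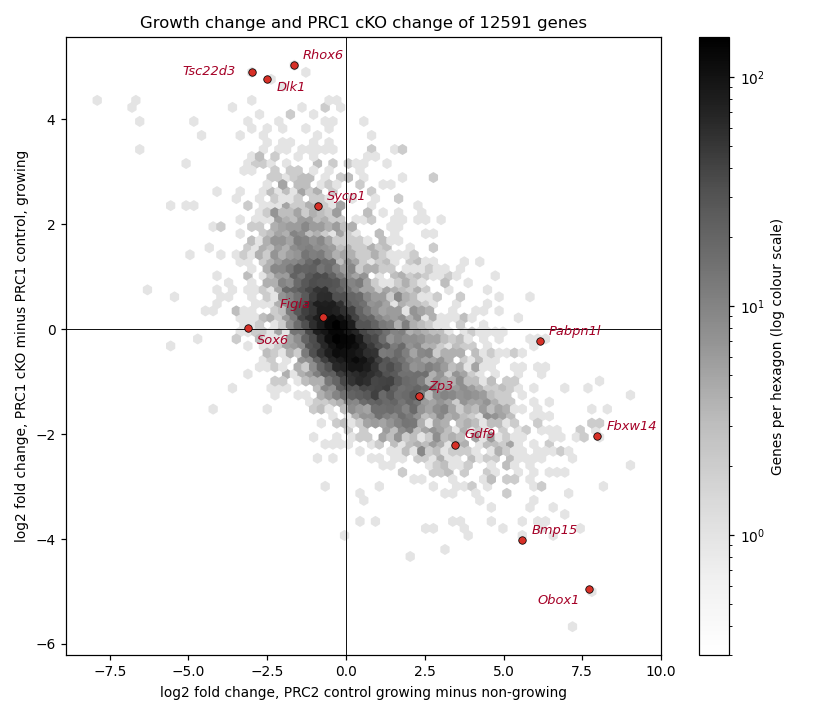
Each hexagon counts genes by their log2 fold change in PRC2 control growth (horizontal axis) and in PRC1 cKO against PRC1 control growing oocytes (vertical axis), for 12591 genes, with darker shades for more genes on a log colour scale and 12 named genes in red. The cloud runs from upper left to lower right (Pearson -0.60), with Obox1 and Bmp15 at the lower right, Dlk1, Tsc22d3 and Rhox6 at the upper left, and Pabpn1l and Sox6 near 0 on the vertical axis.

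The genes at the ends of this relation were chosen by these values. The 6 growth-raised genes with the largest fall in PRC1 cKO were Obox2, Obox1, Bmp15, Fgf8, Obox5 and Cyp2c29. Fgf8, a signal to cumulus cells, was at 0.0562 and 0.132 rescaled TPM in non-growing, 106 and 115 in PRC2 control growing, 167 and 154 in PRC1 control growing and 4.45 and 18.95 in PRC1 cKO libraries. The 6 growth-lowered genes with the largest rise were Tsc22d3, Dlk1, Rhox2c, Hist1h2ao, Ctsz and H2-D1. Tsc22d3, a glucocorticoid-induced leucine zipper gene, was at 14.03 and 14.3 in non-growing, 1.47 and 0.512 in PRC2 control growing, 2.94 and 5.29 in PRC1 control growing and 149 and 147 in PRC1 cKO libraries. H2-D1, a class I histocompatibility gene, was at 12.8 and 14.6 in non-growing and 86.1 and 57.9 in PRC1 cKO libraries. Hist1h2ao, a replication-dependent histone gene, was at 232 and 144 in non-growing and 29.6 and 34.04 in PRC1 cKO libraries, below the non-growing level. Of 68 histone genes 33 were tested, 5 only through PRC1 cKO and 3 only through the non-growing libraries, and 7 rose and 13 fell.

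**Figure D4:**
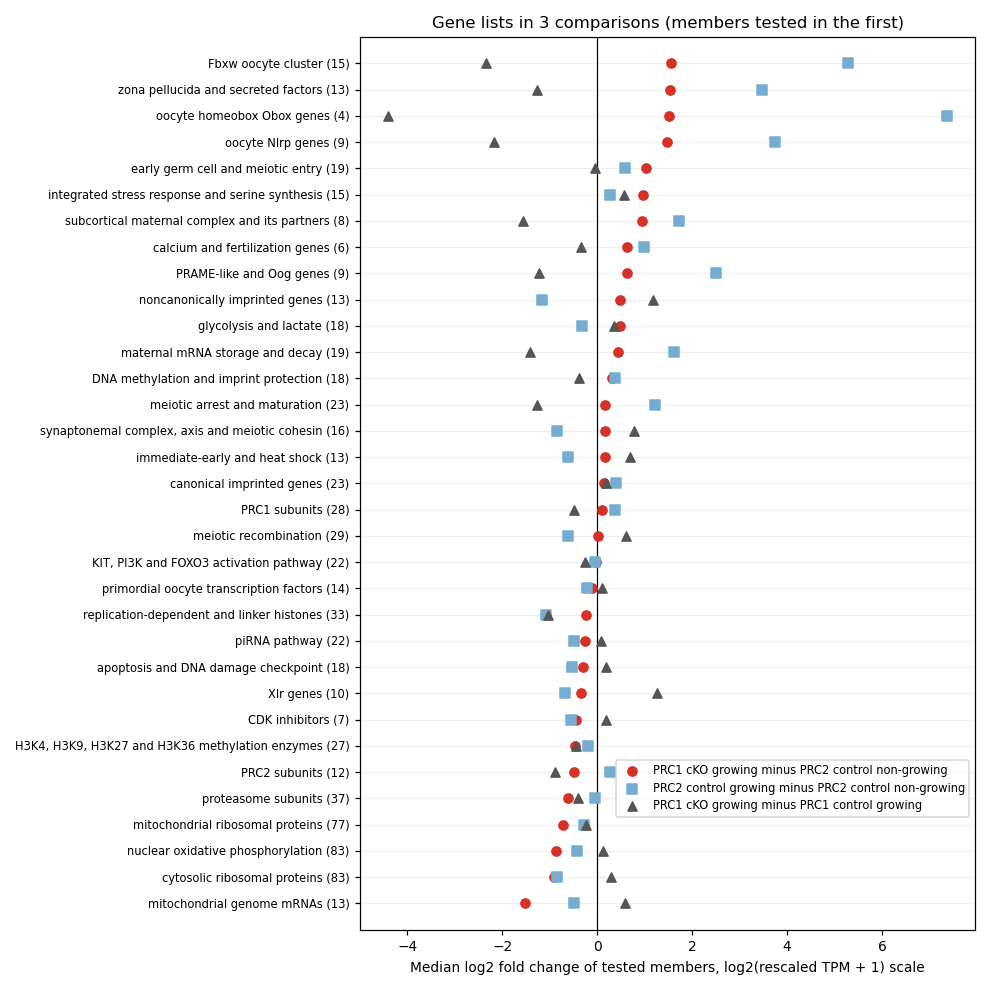
Median log2 fold change of the tested members of each gene list in PRC1 cKO growing against PRC2 control non-growing (red circles), PRC2 control growing against PRC2 control non-growing (blue squares) and PRC1 cKO against PRC1 control growing oocytes (grey triangles), with the number of members tested in the first in brackets and lists left out where over 25% of members reached 1 TPM in 1 group only. Oocyte growth lists (Fbxw, zona and secreted, Nlrp) have red circles between 0 and the blue squares, and for cytosolic ribosomal protein genes red circle and blue square lie together near -0.9.

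Most markers of other ovarian cell types were low in every library, and those tested were higher in PRC1 cKO than in non-growing oocytes or did not pass. The 10 granulosa markers summed to 3.84 and 4.34 rescaled TPM in non-growing, 5.71 to 9.86 in control growing and 22.4 to 29.8 in PRC1 cKO libraries, with Foxl2 and Amh at or below 0.20 in each of the 8 libraries. The 4 tested, Inha, Inhba, Kitl and Cyp19a1, were all higher in PRC1 cKO, Inha at 14.1 and 10.8, and 3 of them met the filter only there. The 6 immune markers summed to 2.11 to 2.27 in non-growing, 21.6 to 26.7 in control growing and 35.2 and 36.05 in PRC1 cKO libraries. To the sums in PRC1 cKO C1qb gave 31.8 and 33.1, and Ptprc, C1qa and Tyrobp stood at or below 0.30. C1qb and Cd68, the immune genes tested, were higher in PRC1 cKO, Cd68 having met the filter only there. Cd68 was at 2.21 and 2.47 in PRC1 cKO and between 3.03 and 5.51 in control growing libraries. Stromal, theca, endothelial, blood and epithelial lists summed to at most 15.2 in any of the 8 libraries. Among their members Hsd3b1, Krt8 and Tek passed as higher in PRC1 cKO, Krt8 and Tek having met the filter only there. Pecam1, Krt18 and Dcn did not pass. The part of these transcripts in the differences above was not tested.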

How the data were processed

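RNA-seq libraries of mouse oocytes were measured in the 4 groups named above, with 2 libraries in each. The values are TPM, deposited by the authors as 2 separate tables, with no counts or depths. Per the submitters' processing notes, the build was GRCm38/mm10 and the tools included RSEM 1.3.3, Subread 2.0.3, HISAT2, SAMtools and Trim Galore 0.6.10; whether counting used strand, and how reads shared by near-identical genes were assigned, is not stated in those notes.

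The tables held 55401 and 55385 gene models, of which 55382 were joined by identifier. Columns were rescaled by a trimmed mean of log ratios (30% of ratios and 5% of mean levels trimmed), and models at 1 TPM or more as deposited in at least 2 of the 4 libraries compared were tested. The test was limma 3.58.1 in R 4.3.3 with an intensity trend, two-sided, on log2(rescaled TPM + 1), with Benjamini-Hochberg adjustment over all genes tested and a threshold of 0.05. A fold change on that scale understates the change of low genes. The comparison spans tables that were normalised separately, so it rests on the joint rescaling. Simulated data with known changes were tested first.

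Genes were named as the targeted genes and oocyte markers, the 8 largest rises and falls, within each list the up to 4 genes of smallest p, and 24 genes chosen by growth and by PRC1 cKO against PRC1 control. Other list members were named after their values were seen. A few genes that the rule names are not reported here. The members and lists were chosen with earlier results of these data known. Promoters came from RefSeq on GRCm38.p6, read with pandas 2.3.3. Alternatives were other pseudocounts, filters, scalings, tests with more libraries, a replicate block and leaving out each library.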

Additional observations from a re-analysis of the deposited data

Results flagged for a closer look

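For 21 of the named genes both comparisons with the non-growing oocytes passed in opposite directions: PRC1 cKO growing oocytes were higher and PRC2 control growing oocytes lower than the same non-growing libraries, or the reverse. The difference between the 2 comparisons was not itself tested, because they share the non-growing libraries and come from 2 tables. Each value here is the log2 fold change in PRC1 cKO growing against non-growing oocytes. It was 4.52 for Ldha, 3.47 for Rhox6, 3.30 for Tsc22d3, 3.29 for Dlk1, 2.72 for Rhox2c, 2.65 for Lhx6 and 2.29 for H2-D1. It was 2.10 for Taf7l, 2.09 for Atf3 (a stress-induced transcription factor), 2.07 for Asns, 1.99 for Xlr, 1.66 for Spata22, 1.46 for Psat1, 1.15 for Ctsz (a lysosomal protease), 1.12 for Sycp1, 0.85 for Sohlh1 and 0.84 for Pgam1 (a glycolytic mutase). Among genes raised in control growth it was -1.28 for Setdb2 (a SET-domain protein), -1.57 for Ooep, -1.59 for Pramef20 and -4.36 for Oog3. The calls of Sohlh1, Ctsz and Pgam1 were lost without 1 or either non-growing library. In PRC1 cKO against PRC1 control, within 1 table, each of the 21 except Oog3 passed in the same direction as here. That comparison shares the PRC1 cKO libraries with the one listed here, so it is not separate support. Tsc22d3, Dlk1, Rhox2c, Ctsz and H2-D1 were among the genes chosen for passing as higher in it. In control growth, the falls of Sycp1 and H2-D1 were each lost under 6 alternatives, and the rises of Setdb2, Ooep and Pramef20 were reversed on the deposited scale.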

How the results depend on the processing

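The direct comparison called 9362 genes, and 5662 of them when a change of at least 2-fold was required. Without 1 library it called 5124 (without non-growing replicate 1), 5309 (without non-growing replicate 2) and up to 9569. A filter of 5 TPM gave 2694 higher and 4027 lower, the deposited values 5416 and 3237, and nuclear protein-coding scaling 6788 and 2476. Control growth and PRC1 cKO against PRC1 control called 4675 and 4114 genes at 2-fold or more. Leaving out 1 library gave 5244 to 8830 in control growth, the lowest without non-growing replicate 1 (5248 without replicate 2), and 2378 to 4955 in PRC1 cKO against PRC1 control. In the last, 2378 were called without PRC1 control replicate 1, 3583 without PRC1 control replicate 2 and 3857 without PRC1 cKO replicate 1. The deposited values split the calls into 2464 higher and 8103 lower in control growth and into 6174 and 964 in PRC1 cKO against PRC1 control, where nuclear protein-coding scaling gave 5048 and 1515, a filter of 5 TPM 1631 and 3083 and no filter 3242 and 2226. In control growth, quantile normalization gave 3670 higher and 5541 lower and nuclear protein-coding scaling 3469 and 5983.

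The share of growth-raised genes that were lower in PRC1 cKO, for which the alternatives were chosen after seeing the data, was 32.0% with no filter, 29.0% on deposited values and 34.4% with nuclear protein-coding scaling, beside 8.40%, 7.16% and 11.4% over all genes, and 16.1% to 63.8% without 1 library (6.28% to 27.1% over all genes). The share of growth-lowered genes that were higher was 50.5% on deposited values and 47.3% with nuclear protein-coding scaling, where 36.6% and 28.3% of all genes were higher, against 14.4% in the values reported. It was 12.2% to 39.3% without 1 library (12.2% and 17.8% without PRC1 control replicates 1 and 2, 17.9% and 20.3% without PRC1 cKO replicates 1 and 2, beside 5.70%, 7.94%, 8.05% and 8.93% over all genes). The cause was not tested.

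Of 192 named genes tested in the direct comparison, 24 lost their call without non-growing replicate 1 and 22 without replicate 2, where the lone library was taken to vary like the others, 10 under quantile normalization, 8 under nuclear protein-coding scaling and 4 on deposited values. In PRC1 cKO against PRC1 control, of 186 named genes 34 changed sign (8 of them calls) and 23 lost their call on deposited values, 23 and 18 with nuclear protein-coding scaling (no calls among the 23), and 47 and 36 lost their call without PRC1 control replicates 1 and 2. In control growth, of 160 named genes 18 changed sign on deposited values (5 of them calls), and 28 and 27 lost their call without non-growing replicates 1 and 2. In the direct comparison the log2 fold change changed sign for Eed (0.019 on deposited values, 0.14 with quantile normalization, 0.26 with nuclear protein-coding scaling), Krt18 (-0.26 with quantile normalization), Cyp2c29 (-0.52 with quantile normalization) and Xlr5a (0.023 with nuclear protein-coding scaling). Without 1 library it ranged from -0.086 to 0.16 for Rnf2, -0.22 to 3.63 for Obox1, -0.65 to 2.72 for Obox2, -0.012 to 0.61 for Krt18 and -0.18 to 0.25 for Cyp2c29. The other alternatives kept the direct count within 1.5 times. The labels share replicate numbers but give no pairing, and the correlation of same-numbered deviations was -0.06, 0.05 and -0.28 in the 3 comparisons; the replicate block gave 8968, 8463 and 5236 calls. TPM carries no depth, so limits of detection cannot be given.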
